A study of Mus musculus with 16 samples.

Results

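Complement is a cascade of secreted proteases and binding proteins, and the 9 genes described here are 8 of its components or inhibitors (C1qa, C1qb, C1qc, C1ra, C4b, C3, Serping1 and Cd55) together with Serpina3n, a secreted serine protease inhibitor. All 9 were found by symbol in both deposited count tables, among 14138 genes listed in the first and 17831 in the second, and all 9 passed the filter on low counts in each table. They were chosen by their measured values in these same hearts, so their differences are given as a description, with no test of their own. The question is how these transcripts behaved when CPT2, an enzyme of fatty acid oxidation, was deleted and when USP30 was lost as well.

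The first table holds 5 hearts labelled CPT2H-KO and 5 wild type hearts. That label names a knockout of carnitine palmitoyltransferase 2 (CPT2), the enzyme that hands long-chain acyl groups to mitochondrial beta-oxidation. The second holds 3 CPT2/USP30 double KO hearts and 3 CPT2 single KO hearts. By their labels, all 6 hearts of that table carried the CPT2 deletion, and the double KO hearts also lacked USP30, which strips ubiquitin from proteins on the mitochondrial surface and so restrains mitophagy. Per the series' design text, the USP30 deletion used a floxed allele and a Cre driven by the cardiac myosin promoter Myh6. The sources used here do not give the driver for CPT2, the animals' ages or whether wild type hearts carried Cre.

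In the classical pathway, C1q, built from the chains of C1qa, C1qb and C1qc, binds immune complexes and dying cells and activates the protease C1r, encoded by C1ra in the mouse. C1s, switched on by C1r, then cuts C4, of which C4b is the main mouse gene, and this leads to the cleavage of C3, where all pathways of the cascade meet. Serping1 encodes C1 inhibitor, which blocks C1r and C1s, and Cd55 encodes decay-accelerating factor, which takes apart C3 convertases on the cell surface. C1q is made largely by macrophages, C3 and the C1 proteases by fibroblasts among others, and in the mouse Serpina3n is an acute phase gene that rises with C4b in several inflamed tissues.

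On GRCm38 (GENCODE M21), C4b lies at chr17:34728380-34743882 and C3 at chr17:57203970-57228136, both on the minus strand. C1qa, C1qb and C1qc lie side by side at chr4:136895917-136898803, chr4:136880129-136886187 and chr4:136889804-136893065, also on the minus strand. C1ra is at chr6:124512405-124523443 and Serpina3n at chr12:104406729-104414329, on the plus strand, and Serping1 at chr2:84765387-84775444 and Cd55 at chr1:130439027-130462744, on the minus strand. Counts are per gene, so exons and UTRs were not measured apart.

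Promoter windows are shown for the genes that carried the largest differences, as far as the RefSeq promoter table (GRCm38.p6) holds them, because these genes are known to respond to inflammatory transcription factors. The table had a window, 250 bases before to 50 after the transcription start, for 6 of the 9 genes, and C4b, C1qa and Serping1 were not among them. Capitals mark matches on either strand to the STAT site TTCNNNGAA or the C/EBP site TTGCNNAA. The interferon response core GAAANNGAA and the NF-kappaB consensus were searched too.
Serpina3n (chr12:104406458-104406757, plus strand): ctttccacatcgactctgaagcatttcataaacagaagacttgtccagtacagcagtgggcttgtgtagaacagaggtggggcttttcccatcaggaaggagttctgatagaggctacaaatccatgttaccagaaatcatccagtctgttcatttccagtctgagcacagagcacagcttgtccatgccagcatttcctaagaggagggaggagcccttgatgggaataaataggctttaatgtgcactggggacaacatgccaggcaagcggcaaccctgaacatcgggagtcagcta
C3 (chr17:57228087-57228386, minus strand): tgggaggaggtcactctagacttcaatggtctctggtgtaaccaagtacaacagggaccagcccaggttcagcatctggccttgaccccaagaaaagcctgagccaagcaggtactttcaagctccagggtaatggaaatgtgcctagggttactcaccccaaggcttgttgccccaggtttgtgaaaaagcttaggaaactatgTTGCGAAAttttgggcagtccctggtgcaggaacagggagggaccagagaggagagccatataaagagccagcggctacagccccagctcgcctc
C1ra (chr6:124512371-124512670, plus strand): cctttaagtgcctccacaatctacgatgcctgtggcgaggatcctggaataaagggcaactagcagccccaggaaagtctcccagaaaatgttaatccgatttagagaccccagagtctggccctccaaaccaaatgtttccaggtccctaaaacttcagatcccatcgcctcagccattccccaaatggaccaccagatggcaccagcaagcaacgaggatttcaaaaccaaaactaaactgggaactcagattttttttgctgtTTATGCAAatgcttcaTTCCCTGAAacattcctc
The C3 window held 1 C/EBP match that began 45 bases before the start. In the C1ra window a C/EBP match began at base 17 and a STAT match at base 33 after the start, and they did not overlap. That RefSeq start lies inside the C1ra gene as GENCODE gives it above, whose first base is further upstream. Of the other windows, that of C1qc held 1 NF-kappaB match, and those of Serpina3n, C1qb and Cd55 held none of the 4 motifs. Of 32851 windows in the table, 8.3% held the STAT motif, 10.8% the C/EBP motif, 8.56% the interferon core and 4.51% the NF-kappaB consensus, so single matches are common, and they are a description of letters, not of binding.

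Libraries held 54674422 to 132762776 counts in the first table and 11067969 to 13532716 in the second, and levels are given as counts per 1e+06 reads (CPM) after scaling by trimmed mean of M-values (TMM). The 9 cardiomyocyte markers, all detected, summed to 21380 to 26560 CPM in CPT2H-KO and 27980 to 30460 CPM in wild type hearts, and to 79110 to 117800 CPM in double KO and 85290 to 92180 CPM in single KO hearts. Cpt2 was at 30.4 to 44.9 CPM in CPT2H-KO hearts, against 53.0 to 89.9 CPM in wild type hearts, and Usp30 was at 7.45 to 10.4 CPM in double KO hearts, against 18.5 to 22.8 CPM in single KO hearts. Cpt2 was at 166.2 to 189 CPM in double KO and 164.3 to 181.8 CPM in single KO hearts, and with no heart of intact CPT2 in that table its loss was not checked there. Libraries of 1 group were not alike in atrial or Y-linked transcripts. The atrial gene Myl7 was under 1 CPM in CPT2H-KO replicates 2, 3 and 4 and above 10 CPM in the other libraries of the first table, and it was at 102 and 425 CPM in double KO replicates 2 and 3, at 1.49 CPM in double KO replicate 1 and under 1 CPM in all 3 single KO libraries. Y-linked transcripts were at background in CPT2H-KO replicates 1 and 3 and wild type replicate 1, and in all 3 double KO libraries and single KO replicate 3. Since these are bulk samples, fewer cells of a type and less RNA per cell cannot be told apart.

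The genes differed widely in level. Divided by exon length (GENCODE M21), Serping1 was at 18.3 ± 4.62 CPM per kb in CPT2H-KO and 14.4 ± 1.88 CPM per kb in wild type hearts (SD, n = 5 each), in the range of the C1q chains. C1qa was at 17.6 ± 3.55 CPM per kb in CPT2H-KO and 20.3 ± 2.61 CPM per kb in wild type hearts, with C1qb, Serping1 and C1qc next below it in wild type hearts and no neighbours in that order separated beyond their spread. C3 followed in wild type hearts at 8.68 ± 4.00 CPM per kb. C1ra, C4b, Cd55 and Serpina3n formed a low group in wild type hearts, at 1.11 to 1.60 CPM per kb on average, and every wild type library of these genes lay below every wild type library of C3. In CPT2H-KO hearts Serping1 led, and the mean of Serpina3n, 11.6 ± 20.1 CPM per kb, lay among those of the C1q chains, with 47.6 CPM per kb in replicate 1; only Cd55, the lowest, was separated from its neighbour. In the second table Serping1 had the highest mean in both groups but overlapped C1qb, at 105.4 ± 15.1 CPM per kb in double KO and 64.4 ± 4.02 CPM per kb in single KO hearts (SD, n = 3 each). In single KO hearts Cd55, C4b and Serpina3n were the lowest, overlapping one another and lying below C1ra in every library, while in double KO hearts Cd55 alone lay below all others.

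**Figure D1:**
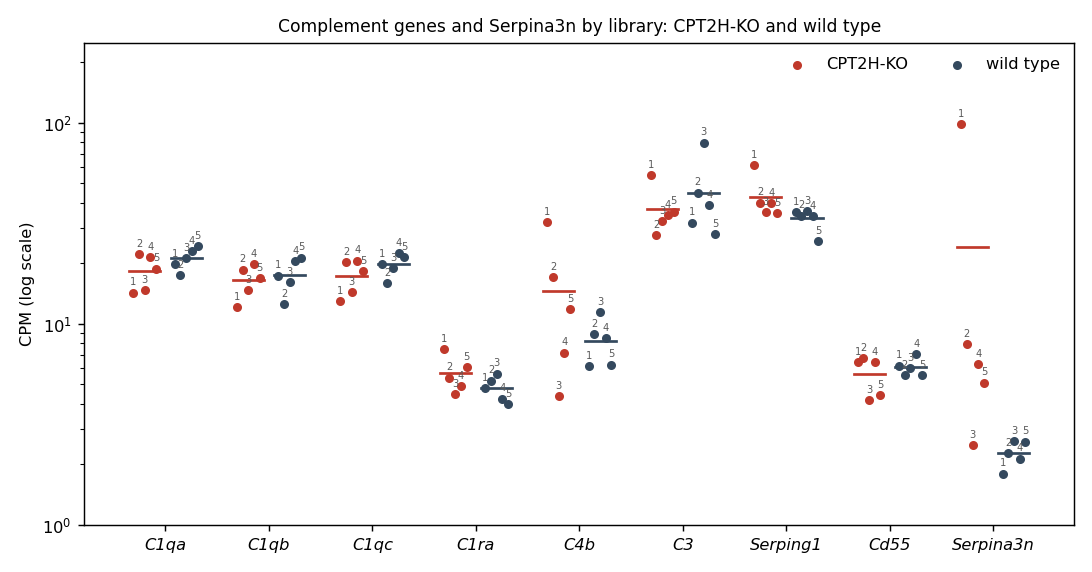
CPM of each gene on a log axis in CPT2H-KO (left of each pair) and wild type (right) hearts, with points numbered by replicate and bars at the means of 5 libraries. Replicate 1 of CPT2H-KO is the highest of its group for Serpina3n, C4b, C3, Serping1 and C1ra and the lowest for C1qa, C1qb and C1qc.

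In CPT2H-KO hearts all 9 transcripts overlapped their wild type range, and the mean levels differed most for Serpina3n and C4b. Serpina3n was at 98.2, 7.94, 2.502, 6.30 and 5.11 CPM in CPT2H-KO replicates 1 to 5, against 1.80, 2.28, 2.60, 2.13 and 2.59 CPM in wild type replicates 1 to 5. Replicates 1, 2, 4 and 5 of CPT2H-KO exceeded every wild type heart, and replicate 3 fell inside the wild type range. The log2 fold change was 3.39 (SE 0.94), and it was 1.26 without CPT2H-KO replicate 1, 2.15 with a term for Y-linked transcripts and 4.64 with an atrial covariate. C4b was at 32.0, 17.1, 4.35, 7.19 and 11.9 CPM in CPT2H-KO replicates 1 to 5, against 6.14, 8.87, 11.5, 8.45 and 6.26 CPM in wild type replicates 1 to 5. Only CPT2H-KO replicates 1, 2 and 5 lay above the wild type range and replicate 3 lay below it, so the groups overlapped, with a log2 fold change of 0.81 (SE 0.44) that was 0.30 without CPT2H-KO replicate 1 and 1.29 with the atrial covariate.

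The central component C3 showed no such pattern. It was at 54.9, 27.5, 32.5, 34.8 and 36.1 CPM in CPT2H-KO replicates 1 to 5, against 31.9, 44.9, 79.6, 39.0 and 28.0 CPM in wild type replicates 1 to 5. Its groups overlapped almost fully, the highest heart was a wild type one, and the log2 fold change was -0.27 (SE 0.27). Without wild type replicate 3 it was 0.048. C4b and C3, which act in successive steps, did not keep a fixed ratio: C4b CPM divided by C3 CPM was 0.583, 0.622, 0.134, 0.206 and 0.329 in CPT2H-KO replicates 1 to 5, against 0.144 to 0.224 in wild type hearts. In the second table it was 0.563, 0.0949 and 0.181 in double KO replicates 1 to 3, against 0.1495, 0.709 and 0.277 in single KO replicates 1 to 3.

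The C1q chains stayed together. Summed over C1qa, C1qb and C1qc, they came to 39.4, 61.0, 43.9, 62.0 and 54.0 CPM in CPT2H-KO replicates 1 to 5, against 57.0, 45.9, 56.3, 65.9 and 67.2 CPM in wild type replicates 1 to 5. CPT2H-KO replicates 1 and 3 lay below every wild type heart and the other 3 inside the wild type range. The log2 fold changes were -0.21 (SE 0.14) for C1qa, -0.09 (SE 0.16) for C1qb and -0.19 (SE 0.14) for C1qc. Each chain kept nearly the same share of the sum, with C1qa at 33.6 to 36.4% in CPT2H-KO and 34.8 to 38.0% in wild type hearts.

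The upstream protease C1ra and the inhibitors Serping1 and Cd55 overlapped wild type. Serping1 was at 61.4, 40.1, 35.9, 39.8 and 35.6 CPM in CPT2H-KO replicates 1 to 5, against 36.0, 34.6, 36.4, 34.4 and 25.7 CPM in wild type replicates 1 to 5. Replicates 1, 2 and 4 of CPT2H-KO exceeded every wild type heart, and the log2 fold change was 0.35 (SE 0.15), or 0.18 without CPT2H-KO replicate 1 and 0.070 with library totals as the only scaling. That scaling moved the median of all genes to -0.27. C1ra was at 5.67 ± 1.18 CPM in CPT2H-KO and 4.78 ± 0.686 CPM in wild type hearts (SD, n = 5 each), with overlap and a log2 fold change of 0.24 (SE 0.15), or 0.127 without CPT2H-KO replicate 1 and -0.026 with library totals. Cd55 was at 5.64 ± 1.25 CPM in CPT2H-KO and 6.07 ± 0.620 CPM in wild type hearts, also with overlap and with a log2 fold change of -0.11 (SE 0.15).

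Across all genes of this table, the edgeR quasi-likelihood test called 16.7% higher and 17% lower in CPT2H-KO hearts at an adjusted p under 0.05. Among the 9 genes selected on their values it called 1 higher, Serpina3n, and 0 lower. At an unadjusted p under 0.05, 2 were higher (Serpina3n and Serping1) and 0 lower, beside 3129 higher and 3152 lower of all 14123 genes tested. DESeq2 called 0 of the 8 to which it gave an adjusted p, and limma-voom called 0. The groups of 0 of the 9 genes were free of overlap, against 11.5% of all genes higher and 13.2% lower without overlap. The median log2 fold change of the 9 genes was -0.094, beside -0.0073 over all 14123 genes tested. The call of Serpina3n was not made with limma-voom, with the replicate number as a block or with a term for Y-linked transcripts, and DESeq2 gave it no adjusted p.

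CPT2H-KO replicate 1 carried the highest Serpina3n, C4b, C3, Serping1 and C1ra of its group and the lowest C1q sum. It also had the lowest summed macrophage markers, 144 CPM, where the other CPT2H-KO hearts had 167 to 236 CPM and wild type hearts 179 to 226 CPM, and the highest summed fibroblast markers, 2450 CPM, where the other CPT2H-KO hearts had 1568 to 2044 CPM and wild type hearts 1312 to 1867 CPM. Its Cpt2 level, 30.4 CPM, was the lowest of all 10 hearts. Over the table, edgeR called 7 of 9 cardiomyocyte markers and 3 of 7 mural cell markers lower in CPT2H-KO hearts, and of 10 fibroblast markers 3 higher and 1 lower. Atrial marker sums ran from 1.16 to 353 CPM in CPT2H-KO and from 57.1 to 438.5 CPM in wild type hearts, and mesothelial ones from 5.33 to 15.3 CPM in CPT2H-KO and from 7.04 to 15.9 CPM in wild type hearts. The part of these in the complement values was not tested.

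The ratio of the C1q sum to the summed level of 16 macrophage markers, all of them detected in every library, covered nearly the same range in both groups of the first table. It was 0.263 to 0.309 in CPT2H-KO and 0.256 to 0.304 in wild type hearts. In the second table it was 0.627, 0.462 and 0.453 in double KO replicates 1 to 3, against 0.507, 0.573 and 0.459 in single KO replicates 1 to 3. The C1q sums there were 302, 159 and 161 CPM in double KO replicates 1 to 3, against 208, 146 and 103 CPM in single KO replicates 1 to 3. The macrophage marker sums were 482, 344 and 355 CPM in double KO replicates 1 to 3, against 411, 254 and 225 CPM in single KO replicates 1 to 3, so the highest C1q heart of each group was also its highest in macrophage markers. Of the 16 markers edgeR called 1 higher and 1 lower in CPT2H-KO hearts and 0 in double KO hearts, where 15 had a log2 fold change above 0 and 1 an unadjusted p under 0.05. Of all 12997 genes tested in double KO hearts, 942 had an unadjusted p under 0.05.

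**Figure D2:**
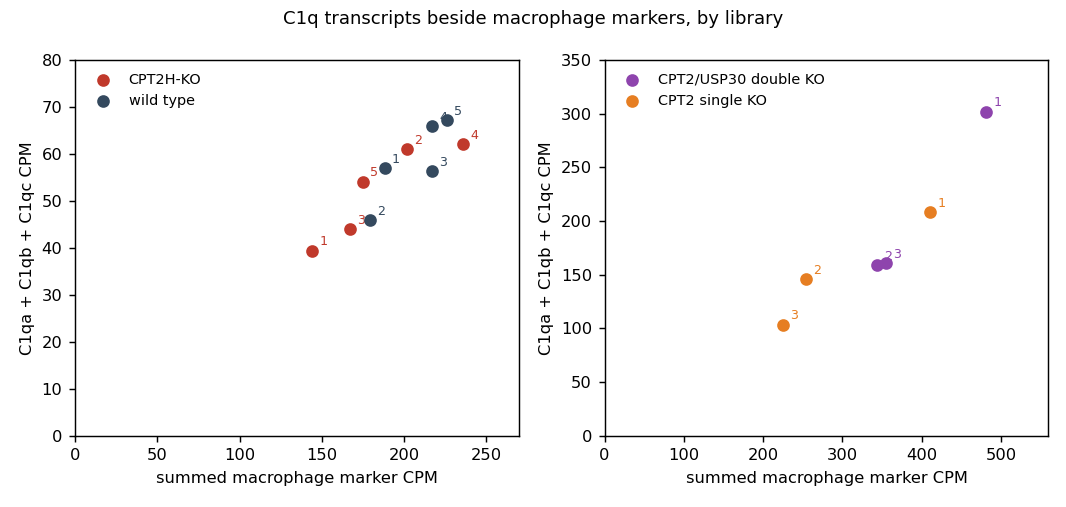
Summed C1qa, C1qb and C1qc CPM (vertical) against summed CPM of 16 macrophage markers (horizontal), 1 point per library numbered by replicate, for CPT2H-KO and wild type hearts (left) and double and single KO hearts (right). Libraries with more macrophage transcripts on the whole had more C1q transcripts in both tables, and the groups overlap.

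In the second table all 9 genes averaged higher in double KO than in single KO hearts, and 4 of them, C4b, Serpina3n, Serping1 and C1ra, were higher in every double KO heart than in any single KO heart, as were 6.69% of all genes, with 5.07% lower in every double KO heart. C4b was at 31.1, 37.9 and 51.3 CPM in double KO replicates 1 to 3, against 11.0, 16.02 and 10.4 CPM in single KO replicates 1 to 3. The lowest double KO heart stood well above the highest single KO heart, and the log2 fold change was 1.68 (SE 0.23). Serpina3n was at 23.7, 14.1 and 13.0 CPM in double KO replicates 1 to 3, against 5.12, 3.82 and 3.85 CPM in single KO replicates 1 to 3. Again no values overlapped, with a log2 fold change of 1.99 (SE 0.27).

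**Figure D3:**
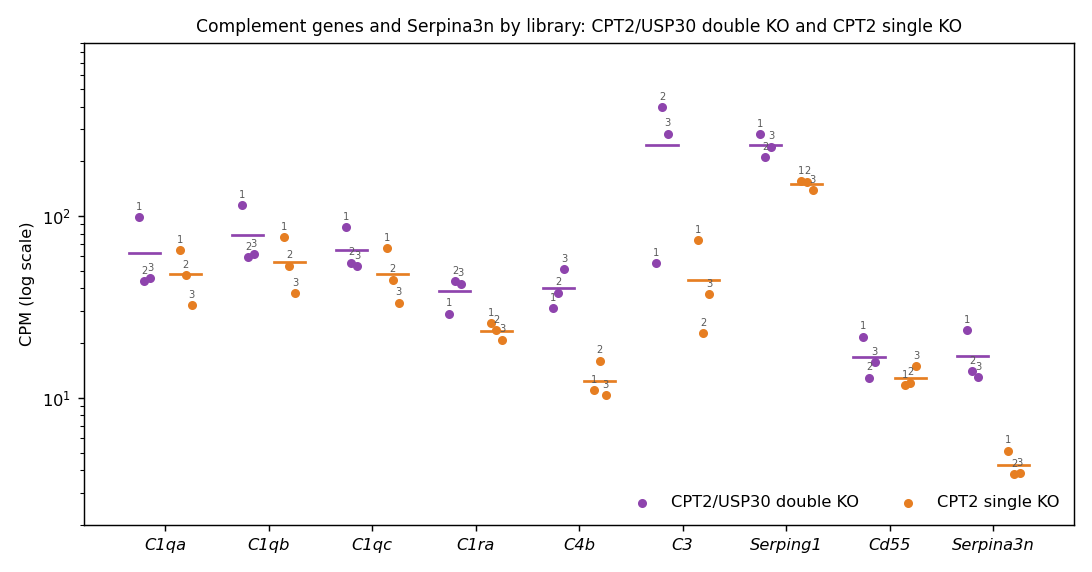
CPM of each gene on a log axis in CPT2/USP30 double KO (left of each pair) and CPT2 single KO (right) hearts, with points numbered by replicate and bars at the means of 3 libraries. For C1ra, C4b, Serping1 and Serpina3n the points of both groups are apart, and for C3 double KO replicate 1 lies inside the single KO range.

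C3 had the largest mean difference and the least even one. It was at 55.3, 399 and 284 CPM in double KO replicates 1 to 3, against 73.4, 22.6 and 37.4 CPM in single KO replicates 1 to 3. Double KO replicate 1 lay between the single KO hearts, while replicates 2 and 3 exceeded them all, and the log2 fold change was 2.47 (SE 0.64). In those 2 hearts C3 made up 45.4% and 35.1% of the summed CPM of the 9 genes, against 7.42% in double KO replicate 1 and 5.98 to 15.0% in single KO hearts.

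Serping1 was at 282, 212 and 241 CPM in double KO replicates 1 to 3, against 156, 155 and 139 CPM in single KO replicates 1 to 3. C1ra was at 29.0, 44.0 and 42.5 CPM in double KO replicates 1 to 3, against 25.8, 23.5 and 20.9 CPM in single KO replicates 1 to 3. Neither gene overlapped between groups, and their log2 fold changes were 0.71 (SE 0.15) and 0.72 (SE 0.18), although double KO replicate 1 was the highest heart for Serping1 and only just above single KO for C1ra. The C1q chains and Cd55 overlapped between groups. C1qa averaged 62.8 ± 31.5 CPM in double KO and 48.3 ± 16.4 CPM in single KO hearts (SD, n = 3 each). Cd55 averaged 16.8 ± 4.51 CPM in double KO and 12.9 ± 1.75 CPM in single KO hearts. The log2 fold changes were 0.38 (SE 0.34) for C1qa, 0.50 (SE 0.31) for C1qb, 0.44 (SE 0.27) for C1qc and 0.38 (SE 0.21) for Cd55. Without double KO replicate 1, the highest heart for each C1q chain, that of C1qa was -0.12, that of C1qb 0.116, that of C1qc 0.1725 and that of Cd55 0.148. With the atrial covariate they were 1.26 for C1qa, 1.23 for C1qb, 1.02 for C1qc and 0.76 for Cd55. Summed atrial markers were higher in every double KO heart than in any single KO heart, so this covariate is partly confounded with the group.

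Across all genes of this table edgeR called 0% higher and 0% lower at an adjusted p under 0.05, the lowest adjusted p being 0.127, and 592 genes higher and 350 lower had an unadjusted p under 0.05. Among the 9 genes selected on their values, 0 were called, and 5 (C4b, Serpina3n, C3, Serping1 and C1ra) had an unadjusted p under 0.05. With limma-voom 0 were called, and with DESeq2 C4b, Serpina3n and Serping1, among 123 genes. The median log2 fold change of the 9 genes was 0.71, beside 0.0027 over all 12997 genes.

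**Figure D4:**
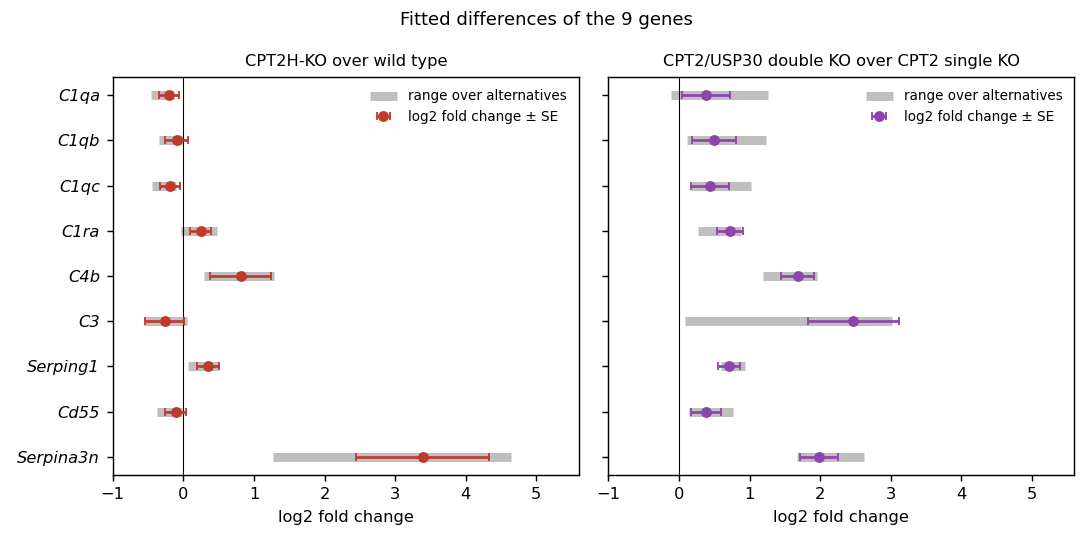
Log2 fold change (horizontal) of each gene for CPT2H-KO over wild type (left) and CPT2/USP30 double KO over CPT2 single KO (right), with points and whiskers for the fit and its SE and grey bars for the lowest and highest value over the alternative settings. For double KO hearts the grey bars of C4b, Serpina3n and Serping1 begin at 1.19, 1.66 and 0.60, while that of C3 begins at 0.088.

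Double KO replicates 2 and 3, where C3 was high, also carried atrial and mesothelial transcripts. The atrial markers Myl7, Myl4 and Sln summed to 9.05, 383 and 1434 CPM in double KO replicates 1 to 3, against 3.58, 3.37 and 2.93 CPM in single KO replicates 1 to 3, where Sln was at 0 in replicates 1 and 2. The mesothelial markers, all 5 detected, summed to 17.8, 38.6 and 98.0 CPM in double KO replicates 1 to 3, against 25.1, 8.69 and 11.0 CPM in single KO replicates 1 to 3, and replicate 1 was also the highest single KO heart for C3. The 8 liver markers summed to 95.3, 64.8 and 264 CPM in double KO replicates 1 to 3, against 63.6, 53.0 and 64.7 CPM in single KO replicates 1 to 3. What part these transcripts have in the C3 values was not tested. Without both of these double KO libraries, a setting chosen after seeing the data that leaves 1 double KO heart, assumed to vary like the single KO hearts, the log2 fold change of C3 was 0.31 and that of C1ra 0.30. Under it C4b was at 1.31, Serpina3n at 2.46 and Serping1 at 0.91, beside 1.68, 1.99 and 0.71 with all libraries. The double KO heart left, replicate 1, was the highest of its group for Serpina3n and Serping1. It was the lowest for C4b, C3 and C1ra, so these values also reflect which heart was kept. With the mean log2 level of the atrial markers as a covariate, C3 was at 0.088, C1ra at 0.26, C4b at 1.19 and Serpina3n at 2.61. The atrial sums did not overlap between groups, so this covariate cannot be fully told apart from the genotype.

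Summed fibroblast markers were also higher in every double KO heart, although edgeR called 0 of the 10. Of these markers 5 had an unadjusted p under 0.05, as had 942 of all 12997 genes tested. All 10 were detected, and they summed to 6988, 5281 and 6130 CPM in double KO replicates 1 to 3, against 3910, 4700 and 3717 CPM in single KO replicates 1 to 3. Double KO replicate 1 had the highest fibroblast sum and the highest Serping1 but the lowest C4b, C3 and C1ra of its group. The part of the fibroblast markers in the levels of C4b, Serping1 and C1ra was not tested. The sum of 6 red blood cell markers was lower in every double KO heart, and 3 of the 6 were lower without overlap, as were 5.07% of all genes. It was 7542, 4555 and 7763 CPM in double KO replicates 1 to 3, against 8486, 8129 and 10040 CPM in single KO replicates 1 to 3. Endothelial markers summed to 1693, 1313 and 1538 CPM in double KO replicates 1 to 3, against 1810, 1734 and 1605 CPM in single KO replicates 1 to 3, with overlap. Their part in the complement values was not tested either. The groups also differed in Y-linked transcripts, which single KO replicates 1 and 2 carried and no double KO heart did. With a term for them, which compares the double KO hearts with single KO replicate 3, C4b was at 1.95, Serpina3n at 2.13 and C3 at 2.72.

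**Figure D5:**
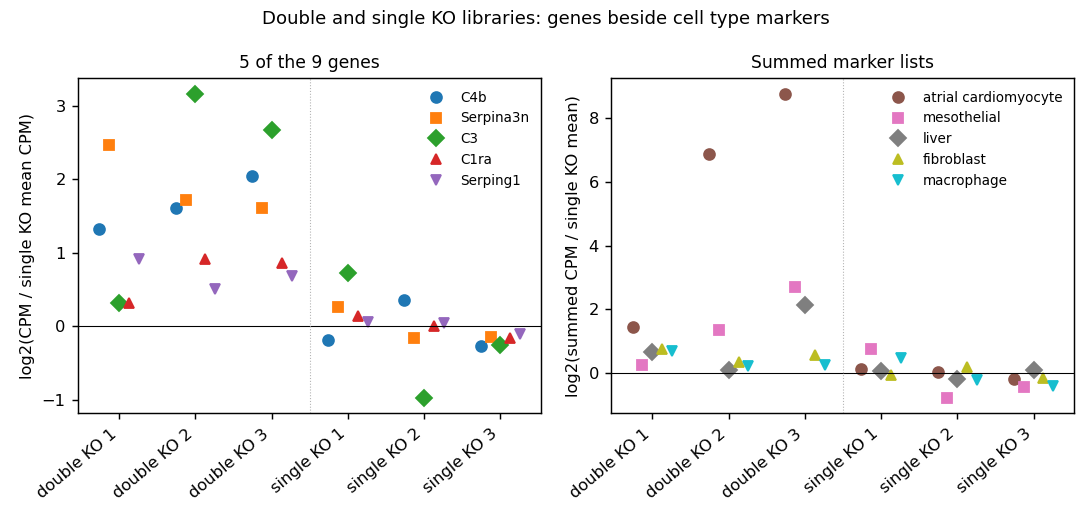
Log2 ratio of each double and single KO library to the single KO mean, for 5 of the 9 genes (left) and for the summed CPM of 5 marker lists (right). C3 is high in double KO 2 and 3, the libraries with high atrial and mesothelial marker sums, while Serpina3n and Serping1 are highest in double KO 1.

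The rest of the complement system, 52 genes outside the 9, was counted from lists of its pathways. In CPT2H-KO hearts 27 of the 52 were tested, of which edgeR called 3 higher and 5 lower, with a median log2 fold change of -0.055. Over all genes 16.7% were called higher and 17% lower, so these counts are near the background of the table. Cd59a, which blocks the membrane attack complex, fell to 10.0 ± 1.04 CPM in CPT2H-KO hearts, against 21.9 ± 2.36 CPM in wild type hearts, with no overlap (n = 5 each, log2 fold change -1.13, SE 0.10, edgeR adjusted p = 1.95e-05). Its paralog Cd59b (-1.07), Cr1l, the mouse regulator of C3 deposition also called Crry (-0.31), and Vtn, which encodes vitronectin, an inhibitor of the terminal complex (-0.92), were also called lower, as was the lectin pathway recognition gene Fcna (-0.89). C1qbp, whose protein binds C1q but sits mainly in mitochondria, rose to 32.5 ± 3.34 CPM in CPT2H-KO hearts, against 19.6 ± 1.46 CPM in wild type hearts (n = 5 each, log2 fold change 0.73, SE 0.08, edgeR adjusted p = 1.62e-04). Itgax, a chain of complement receptor 4 (1.26), and the collectin gene Colec12 (0.43) were called higher too. The calls of Cd59a, Cr1l, Vtn, C1qbp and Itgax held on leaving out any library, but those of Itgax, Fcna and Cd59b were lost with the atrial covariate. That of Fcna was lost without wild type replicate 3, 4 or 5 or CPT2H-KO replicate 1, 2 or 3. Among fits leaving out a library, that of Cd59b held only without wild type replicate 5 or CPT2H-KO replicate 3. That of Colec12 held only without CPT2H-KO replicate 3 or 4. Neither was called with limma-voom or the term for Y-linked transcripts, and Colec12 was also lost with library totals and the replicate block.

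Genes that edgeR did not call, given with their log2 fold changes, included Masp1, a lectin pathway protease gene (-0.76), C1rl (-0.11), the C5a-binding receptor gene C5ar2 (-0.62), Cd93 (0.24), the properdin gene Cfp (-0.30) and the terminal component gene C7 (-0.68). Masp1 was called lower by limma-voom, with library totals and without CPT2H-KO replicate 1, and C5ar2 by limma-voom and DESeq2, with library totals and without CPT2H-KO replicate 5. Cfd, called by limma-voom and without CPT2H-KO replicate 5 but not by edgeR on all libraries, which encodes adipsin, the factor D of the alternative pathway that fat cells make, was at 5.18 CPM in CPT2H-KO replicate 5 and at most 0.0395 CPM in the other CPT2H-KO hearts, against 0.958 to 5.76 CPM in wild type hearts. In double KO hearts Cfd ranged from 0.0830 to 62.8 CPM, against 0 to 0.0749 CPM in single KO hearts, and the low-count filter removed it.

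In double KO hearts 26 of the 52 genes were tested by edgeR, of which 0 were called, 10 had an unadjusted p under 0.05, 21 had a log2 fold change above 0 and 9 were higher without overlap, with 1, Cd93, lower without overlap. Their median log2 fold change was 0.50. Over all 12997 genes tested, 942 had an unadjusted p under 0.05, 6.69% were higher without overlap and 5.07% lower without overlap. Of the 52 genes, DESeq2 called 4 higher, Cfb among them, and limma-voom called 0. Cfb, which encodes the protease of the alternative C3 convertase and was chosen after its values were seen, was at 7.11 ± 3.57 CPM in double KO and 1.98 ± 0.770 CPM in single KO hearts (SD, n = 3 each), with no overlap. Fcna (1.05), Cfp (0.74) and C7 (0.92) were likewise higher without overlap. Cd59a (0.072), Cr1l (-0.12), Vtn (-0.17) and C1qbp (-0.042), each called in CPT2H-KO hearts, had values near 0 in this comparison and were not called.

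Paralogs could share reads with the 9 genes, since no source used here gives the counting rules. C4a, the near-identical neighbour of C4b on chromosome 17, had at most 4 counts in a library of the second table, C1rb at most 1 and Cd55b 0. Of 10 Serpina3 paralogs, 7 were listed in the second table and 1, Serpina3k, a liver gene, was tested, at 6.64 ± 9.04 CPM in double KO and 1.76 ± 0.731 CPM in single KO hearts (SD, n = 3 each), with overlap. Of 25 acute phase and STAT3 response genes, the class to which Serpina3n belongs in the mouse, 16 were tested in CPT2H-KO hearts. Of these edgeR called 4 higher and 0 lower, where 16.7% of all genes were called higher and 17% lower. An unadjusted p under 0.05 was found for 5 of them, beside 6281 of all 14123 genes tested. Those called were Timp1, a metalloproteinase inhibitor (1.78), the lipocalin gene Lcn2 (1.16), the lipopolysaccharide-binding protein gene Lbp (1.05) and the interleukin 6 signal transducer gene Il6st (0.34). With library totals as the only scaling 2 were called. In double KO hearts edgeR called 0 of 16, and 5 had an unadjusted p under 0.05, as had 942 of all 12997 genes tested. Counted together with the Serpina3 paralogs, limma-voom called 0 higher and DESeq2 1.

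Genes whose profile over the 10 libraries of the first table was most like that of a member were found by the mean absolute difference of log2 CPM, each gene taken relative to its own wild type mean, among 10132 genes. For Serpina3n they were Lox, a collagen crosslinking enzyme gene (0.322), Stc1 (0.411), Xirp2 (0.469), Thbs4 (0.480) and Map1a (0.486), where the median gene was at 1.01. For C4b they were Fbln5 (0.278), Crispld1, Mgp, Cd44 and Plscr1 (0.312), where the median was 0.607. For C1qa they were Higd1b (0.0845), Arrb2 (0.0912), the macrophage growth factor receptor gene Csf1r (0.0922), Maf (0.0940) and Nckap1l (0.0954), where the median was 0.258. In double against single KO hearts, which share no library with these, log2 fold changes of those chosen for Serpina3n were 2.17 for Thbs4, 0.62 for Stc1, 0.47 for Lox, 0.175 for Map1a and -0.26 for Xirp2, beside 1.99 for Serpina3n. For those chosen for C4b they were 0.98 for Mgp, 0.60 for Fbln5, 0.35 for Crispld1, -0.11 for Plscr1 and -0.13 for Cd44, beside 1.68 for C4b. For those chosen for C1qa they were 0.42 for Arrb2, 0.41 for Csf1r, 0.36 for Maf, 0.31 for Nckap1l and -0.28 for Higd1b, beside 0.38 for C1qa.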

How the data were processed

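RNA was sequenced from 16 mouse hearts, 5 CPT2H-KO, 5 wild type, 3 CPT2/USP30 double KO and 3 CPT2 single KO, grouped by the sample titles. Libraries were stranded and made from total RNA with Ribo-Zero, per the labels' protocols. Per the submitters' processing notes, bcl2fastq, HISAT2, DESeq2 1.42.0 and build mm10 were used. The sources used here do not give the counting program, the annotation or the strand setting. The authors deposited raw read counts per gene in 2 tables with different gene sets, so groups were compared within a table only. In the second, 1 nameless entry was dropped.

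From these counts, edgeR 4.0.16 in R 4.3.3 (filterByExpr, TMM, quasi-likelihood F test, Benjamini-Hochberg threshold 0.05 over all genes) gave log2 fold changes with an SE derived from the F statistic, and CPM on TMM-scaled totals. Alternatives were library totals, RLE factors, no filter, DESeq2 1.42.0, limma-voom (limma 3.58.1), a replicate block, a term for Y-linked transcripts, an atrial covariate and leaving out each library. The edgeR fit was also run on simulated counts with 200 genes changed, and its outcome is not used here. In single KO hearts Serpina3n had 42 to 63 counts a library, C4b 113 to 214 and Cd55 144 to 163, which limits precision there.

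The 9 genes and all lists were chosen with earlier results of these data known. Beyond the 9, the text names up to 4 genes with the smallest p of each list in CPT2H-KO hearts, paralogs, the 5 most similar profiles for 3 genes, and genes named as chosen after their values were seen. Within groups, no libraries held identical counts, and the lowest chi-square per degree of freedom between any pair was 10.7, so none was counted as a repeat. The labels call the libraries biological replicates and name no litters or batches.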

Additional observations from a re-analysis of the deposited data

Results flagged for a closer look

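In groups of 5, a library is listed here when its gap to the nearest other library exceeded Dixon's 95% limit of 0.71 of the group's range, which chance alone passes in about 1 group in 20. Of 88 gene and group values checked in the first table, 10 passed. Among the 9 genes, CPT2H-KO replicate 1 stood apart with 98.16 CPM of Serpina3n, where the next library had 7.94 CPM, and with 61.37 CPM of Serping1, where the next had 40.1 CPM. Wild type replicate 5 stood apart with 25.74 CPM of Serping1, below the next at 34.4 CPM, and with 2.445 CPM of Lbp. CPT2H-KO replicate 1 was also the highest of its group for Masp1 (3.695 CPM), Lcn2 (3.557 CPM), Lox (65.58 CPM) and Stc1 (19.42 CPM), and the lowest for Cpt2 (30.43 CPM). Lox and Stc1 were picked for a profile like that of Serpina3n, so their place here follows from that choice. CPT2H-KO replicate 5 was the highest for Cfd, at 5.182 CPM. Values for 3 libraries a group, as in the second table, were not checked this way.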

How the results depend on the processing

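Of the 9 genes, 1 was called higher in CPT2H-KO hearts, and 0 with limma-voom, the replicate block or the term for Y-linked transcripts. DESeq2 left Serpina3n without an adjusted p and so gives no count, and leaving out a library kept the count at 1. In double KO hearts 0 were called higher, against 3 with DESeq2 and 1 with the atrial covariate, and also 1 when the pair of double KO hearts carrying Myl7 was dropped, a setting chosen after seeing the data. Leaving out a library gave 0 to 4, the highest without double KO replicate 1 (C4b, Serpina3n, C3 and C1ra). Over all genes of that table the count was 0, and it was 123 with DESeq2, 1 with the replicate block, 64 with the atrial covariate, 36 without that pair and 0 to 114 on leaving out a library, the highest without double KO replicate 1 and 4 without single KO replicate 3. Between CPT2H-KO and wild type hearts 4758 genes were called, against 3103 with the atrial covariate and 3682 to 4787 on leaving out a library.

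Of the other complement genes, 5 were called lower in CPT2H-KO hearts, against 8 with library totals or limma-voom, 3 with the atrial covariate and 3 to 6 on leaving out a library (3 without wild type replicate 3 or 4 or CPT2H-KO replicate 2). In double KO hearts 0 were called higher, against 4 with DESeq2 and 0 to 3 on leaving out a library. Serpina3 paralogs and acute phase genes called higher, counted together, numbered 4 in CPT2H-KO hearts and 2 with library totals. In double KO hearts they numbered 0, but 1 with DESeq2, with the atrial covariate and without that pair. Library totals moved the median log2 fold change of all genes in the first table to -0.27, and that of C1ra to -0.026. Over 18 alternatives C4b, Serpina3n and Serping1 stayed above 0 in CPT2H-KO hearts, and over 15 alternatives all 9 genes but C1qa did in double KO hearts.

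Same-numbered libraries correlated in their deviations at -0.047 to 0.262 in the first table and -0.201 to 0.183 in the second. The labels give no pairing, and these correlations cannot show whether same-numbered libraries were handled together. The block moved no count beyond those given above by over 1.5 times. The cause of these shifts was not tested.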
